A study of Homo sapiens with 4 samples.

Results

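SOX17, SOX7 and SOX18, together with HHEX, CER1, CXCR4 and GATA3, were followed through the open chromatin of cardiac progenitor cells. All but the SOX genes are grouped here as definitive endoderm markers. A peak was taken as a member when the authors labelled it with one of these 7 symbols, or when the nearest protein-coding gene body within 100 kb was one of them (RefSeq, GRCh38.p14). This gave 20 of 60875 peaks. SOX17 and GATA3 had 6 each, SOX7 and CXCR4 3 each and HHEX 2, whereas SOX18 and CER1 had none. The cells were of WTC11, a long-established line of human induced pluripotent cells with wild type genotype, and were taken through cardiac progenitor differentiation and harvested on day 6. ATAC-seq, in which the transposase Tn5 cuts open chromatin and adds sequencing adapters, was done on 2 libraries of differentiations labelled high and 2 of those labelled low, for the later purity of cardiomyocytes; the genotype, line and differentiation treatment are the same in both groups.

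SOX17, SOX7 and SOX18 form the SOXF group of HMG-box transcription factors. SOX17 is a central regulator of definitive endoderm, and all of them act in blood and lymphatic vessel endothelium, where they can stand in for each other in mice. Definitive endoderm arises beside cardiac mesoderm in the primitive streak under NODAL signalling, and HHEX, CER1 and CXCR4 are among the genes used to recognise it in stem cell cultures.

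Each value below is the authors' comparison of the 2 purity groups: a log2 fold change and its standard error (SE), with an adjusted p under 0.05 taken as changed. The authors' deposited table marks negative values Up and positive values Down, but the sources used here do not say which purity group is on top of the fold change. Each change is therefore described as lying on the Up side (below 0) or on the Down side (above 0), without saying in which group the site was more open. With no value per library at hand, the depth of each library is unknown and the spread between libraries enters only through the SE. In a bulk sample, fewer cells with an open site and a site less open in each cell cannot be told apart. All 7 cardiomyocyte marker genes that were looked up, NKX2-5 and MYH6 among them, had a peak in the table, as did both pluripotency genes, POU5F1 and NANOG. A peak does not show that a gene is expressed.

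Promoter sequences were available for 4 of the 7 genes. They are shown because the changed peaks described below lie away from the start sites in HHEX and GATA3, and because the start of CER1 carries no peak. Each line gives the 250 bases before a start site in RefSeq (GRCh38.p14), 5′ to 3′ on the gene's strand, with CpG dinucleotides in capitals. The windows are chr10:92689705-92689954 on the plus strand for HHEX, chr10:8054438-8054687 on the plus strand for GATA3, chr2:136118150-136118399 on the minus strand for CXCR4 and chr9:14722734-14722983 on the minus strand for CER1.
HHEX: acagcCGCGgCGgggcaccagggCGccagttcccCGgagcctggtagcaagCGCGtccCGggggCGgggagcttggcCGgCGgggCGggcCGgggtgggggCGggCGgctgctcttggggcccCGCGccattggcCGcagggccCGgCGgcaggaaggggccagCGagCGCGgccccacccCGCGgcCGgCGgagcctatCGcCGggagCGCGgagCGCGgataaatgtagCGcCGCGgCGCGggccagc
GATA3: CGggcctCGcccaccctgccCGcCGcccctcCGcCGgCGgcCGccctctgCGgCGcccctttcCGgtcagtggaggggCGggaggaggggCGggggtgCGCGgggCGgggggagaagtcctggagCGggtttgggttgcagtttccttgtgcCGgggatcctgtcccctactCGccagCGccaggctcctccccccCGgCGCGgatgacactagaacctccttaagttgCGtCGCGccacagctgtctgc
CXCR4: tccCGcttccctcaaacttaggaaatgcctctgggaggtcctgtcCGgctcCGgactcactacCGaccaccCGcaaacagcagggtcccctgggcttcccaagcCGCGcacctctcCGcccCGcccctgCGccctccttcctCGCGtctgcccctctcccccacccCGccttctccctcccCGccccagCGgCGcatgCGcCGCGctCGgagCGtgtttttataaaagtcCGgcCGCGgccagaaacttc
CER1: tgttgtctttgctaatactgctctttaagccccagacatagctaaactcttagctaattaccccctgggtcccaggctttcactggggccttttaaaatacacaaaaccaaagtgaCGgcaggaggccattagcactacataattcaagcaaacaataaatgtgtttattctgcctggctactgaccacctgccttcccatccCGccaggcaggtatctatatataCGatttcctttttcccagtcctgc
The HHEX window held 38 CpG dinucleotides, that of GATA3 26 and that of CXCR4 24, whereas that of CER1 held 3. Peaks covered all 250 bases of the HHEX and CXCR4 windows and 222 bases of the GATA3 window, and no peak touched the CER1 window. Over the 35116 promoter windows of the RefSeq table, the 44.7% that overlapped a peak had a median of 22 CpG dinucleotides and the others a median of 4. The RefSeq table holds 6 windows for GATA3 and 3 for CXCR4, for alternative starts, and 1 of each is printed. The printed GATA3 window is the only 1 of the 6 that a peak overlaps. Among those without a peak, chr10:8053391-8053640 holds 30 CpG dinucleotides, more than the printed window. Of the CXCR4 windows that are not printed, 1 lies in the same peak as the printed window and 1 overlaps no peak. The letters of 6 motifs were searched on both strands of all windows of the 4 genes. None was found in the printed windows, and 1 was found in the others: the SOX motif, in the GATA3 window chr10:8060207-8060456, before the start downstream of the changed peak described below, where no peak overlaps. The motifs were ACAATG for SOX factors, held by 9.29% of all promoter windows, AGATAA for GATA factors (9.17%), TGTTTAC for forkhead factors (2.98%), AATCCACA for FOXH1 (0.709%), CAGGAAGT for ETS factors (2.60%) and ATCAAAG for TCF/LEF factors (2.26%). A match is no evidence of binding, and an absence says only that these letters are not in these windows.

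SOX17 had 1 changed peak, on the Up side. It lay 14.0 kb below the lower end of the gene body (chr8:54443623-54443980) and overlapped the long noncoding RNA gene LOC105375841. Its log2 fold change was -1.77 ± 0.55 in the authors' deposited table (SE, DESeq2 with Benjamini-Hochberg adjustment over all peaks, adjusted p = 0.0281), a 3.41-fold difference. The 95% interval that follows from this SE runs from -2.85 to -0.69. The peak was a weak one: its mean normalized count over all libraries was 26.1 in the authors' deposited table, and 16.7% of all peaks had a lower one. The 2 peaks that carry the SOX17 symbol did not pass. One overlaps the lower end of the gene (chr8:54457818-54458311) and gave -0.05 ± 0.38 log2 units in the authors' deposited table (SE, adjusted p = 0.980). The other lies 4.46 kb below the gene and gave -0.23 ± 0.49 log2 units in the authors' deposited table (SE, adjusted p = 0.914). The remaining peaks, inside the gene and 35.1 kb and 75.5 kb below it, lay between -0.15 and 0.08 log2 units by the authors' deposited table, with adjusted p-values of 0.914 or more. Thus the estimates for the SOX17 peaks were close to 0 apart from the changed one. Their intervals were wide, from -1.19 to 0.73 for the peak 4.46 kb below the gene, so these sites are not shown to be unchanged. The changed peak differed from the peak at the gene by -1.72 ± 0.67 log2 units (SE, 95% interval -3.04 to -0.40), if the errors of both peaks are taken as independent, which could not be checked. The pair was chosen with the values known, so the interval is no test of a difference.

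SOX7, the SOXF gene on the short arm of the same chromosome, had 3 peaks, and none passed. The peak with the smallest p lay 3.99 kb above the gene body and overlapped the noncoding gene SOX7-AS1. It gave -0.72 ± 0.48 log2 units in the authors' deposited table (SE, adjusted p = 0.520). Its neighbour, 2.05 kb above the gene and also in SOX7-AS1, gave -0.37 ± 0.48 log2 units in the authors' deposited table (SE, adjusted p = 0.828). The third, 7.24 kb below the gene and labelled RP1L1 by the authors, gave 0.20 ± 0.29 log2 units in the authors' deposited table (SE, adjusted p = 0.852). Mean normalized counts behind these values ran from 29.98 to 89.2 (the authors' deposited table). With its SE, the peak with the smallest p would have needed an absolute estimate of 1.42 log2 units to pass.

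SOX18, the SOXF gene best known from lymphatic vessels, had no member peak. It lies among closely spaced genes on chromosome 20, and each of the 13 peaks within 100 kb of it was nearer to another protein-coding gene. These lay between -0.52 and 0.42 log2 units by the authors' deposited table, and none passed. The closest, 8394 bp away and overlapping C20orf204, gave 0.04 ± 0.27 log2 units in the authors' deposited table (SE, adjusted p = 0.976). Within 250 kb, 1 of 29 peaks passed, on the Down side; it overlaps PCMTD2, 211.6 kb away, and gave 1.88 ± 0.44 log2 units in the authors' deposited table (SE, adjusted p = 0.00136). The table lists called peaks only, so the lack of a peak at SOX18 or CER1 does not show that the site is closed.

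**Figure D1:**
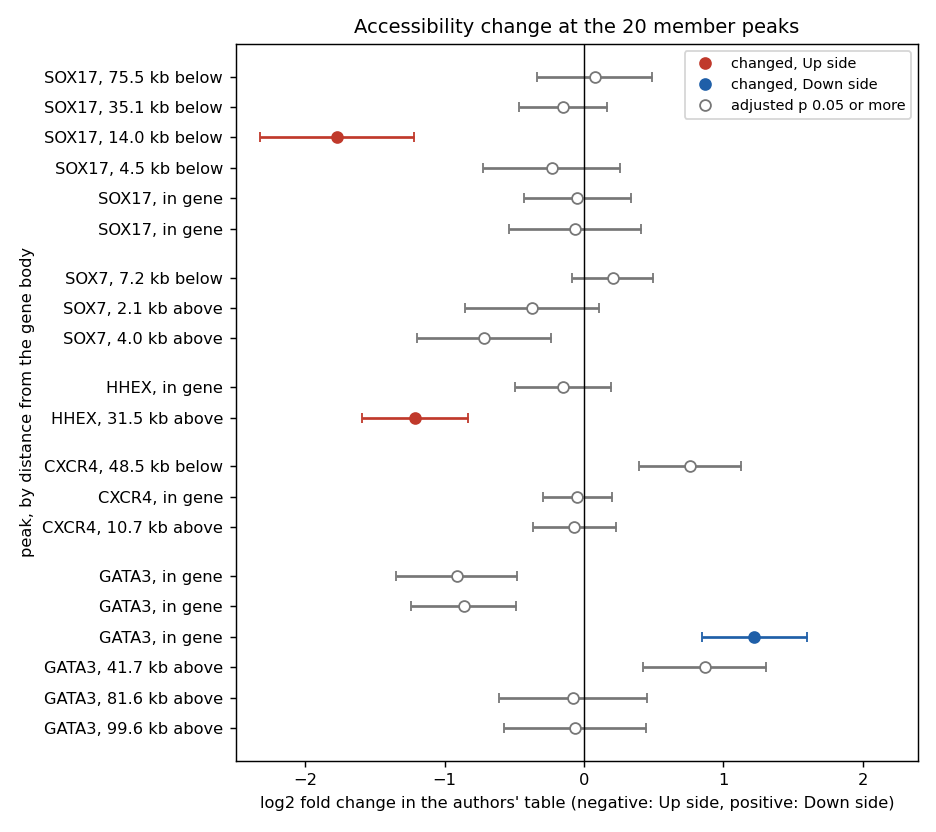
Log2 fold change in the authors' deposited table (x axis) of the 20 member peaks, listed down the page by gene and by distance from the gene body in kb (below and above refer to lower and higher coordinates); bars are ± 1 SE. The changed peaks of SOX17 (-1.77) and HHEX (-1.21) lie on the Up side and that of GATA3 (1.22) on the Down side, and the open circles did not pass.

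HHEX, a homeobox factor of anterior endoderm, liver and early endothelium, had 1 of its 2 peaks changed, again on the Up side. The changed peak (chr10:92727153-92727850) lay 31.5 kb beyond the 3′ end of the gene. It gave -1.21 ± 0.38 log2 units in the authors' deposited table (SE, adjusted p = 0.0283), a 2.32-fold difference with a 95% interval of -1.96 to -0.47. The promoter peak, which covers the window printed above (chr10:92689697-92690633), gave -0.15 ± 0.35 log2 units in the authors' deposited table (SE, adjusted p = 0.921). Their mean normalized counts were alike, 55.6 for the distal and 60.2 for the promoter peak in the authors' deposited table. The distal peak differed from the promoter peak by -1.06 ± 0.51 log2 units (SE, 95% interval -2.07 to -0.06), on the same assumption of independent errors. This pair too was chosen with the values known, so the interval is no test. The other 7 peaks within 250 kb of HHEX are nearer to other genes, and none of them passed.

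GATA3, a zinc finger factor best known from T lymphocytes, trophoblast and surface ectoderm, had its changed peak on the other side. The changed peak (chr10:8057761-8058062) lies inside the gene, 3073 bp downstream of the start whose promoter is printed above and 2395 bp upstream of the next start in the RefSeq table. It gave 1.22 ± 0.38 log2 units in the authors' deposited table (SE, adjusted p = 0.0267), a 2.33-fold difference with a 95% interval of 0.48 to 1.96. The authors label this peak GATA3-AS1, after the antisense gene. The peak at the printed start (chr10:8054466-8054845), which bears the same label, gave -0.86 ± 0.37 log2 units in the authors' deposited table (SE, adjusted p = 0.181). A peak a little further up the gene (chr10:8051858-8052110) gave -0.91 ± 0.44 log2 units in the authors' deposited table (SE, adjusted p = 0.254). Both values are negative with an unadjusted p under 0.05, but neither passed. The changed peak differed from the one at the start by 2.09 ± 0.53 log2 units (SE, 95% interval 1.04 to 3.13), again with independent errors assumed. Both peaks were picked by their p-values, so the interval describes this pair and is no test. Peaks a few kb apart inside GATA3 thus had values on both sides of 0. Beyond the gene, the peak at 41.7 kb gave 0.87 ± 0.44 log2 units in the authors' deposited table (SE, adjusted p = 0.305), and those at 81.6 kb and 99.6 kb gave -0.08 and -0.06. The last of these is the member closest to the 100 kb limit, and the nearest peak outside it, 112.6 kb from CXCR4, gave 0.21 ± 0.57 log2 units (SE) by the authors' deposited table.

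The wider surroundings of GATA3 held further changed peaks that are no members. Of 17 peaks within 250 kb of the gene, 3 changed, each on the Down side, to which 3.64% of all peaks changed. Apart from the one inside the gene these were a peak 112.7 kb below it, overlapping TAF3, and one 204.3 kb above it. The first gave 1.68 ± 0.49 log2 units (SE, adjusted p = 0.0153) and the second 1.395 ± 0.44 (SE, adjusted p = 0.0305), as listed by the authors' deposited table. Further out, in the gene-poor stretch whose nearest protein-coding gene is still GATA3, a peak 332.4 kb away lay on the Up side and gave -1.74 ± 0.47 log2 units in the authors' deposited table (SE, adjusted p = 0.00670). Another, 1169.6 kb away and on the Down side, gave 2.25 ± 0.46 log2 units in the authors' deposited table (SE, adjusted p = 1.38e-04). Whether any of these peaks acts on GATA3 was not measured.

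**Figure D2:**
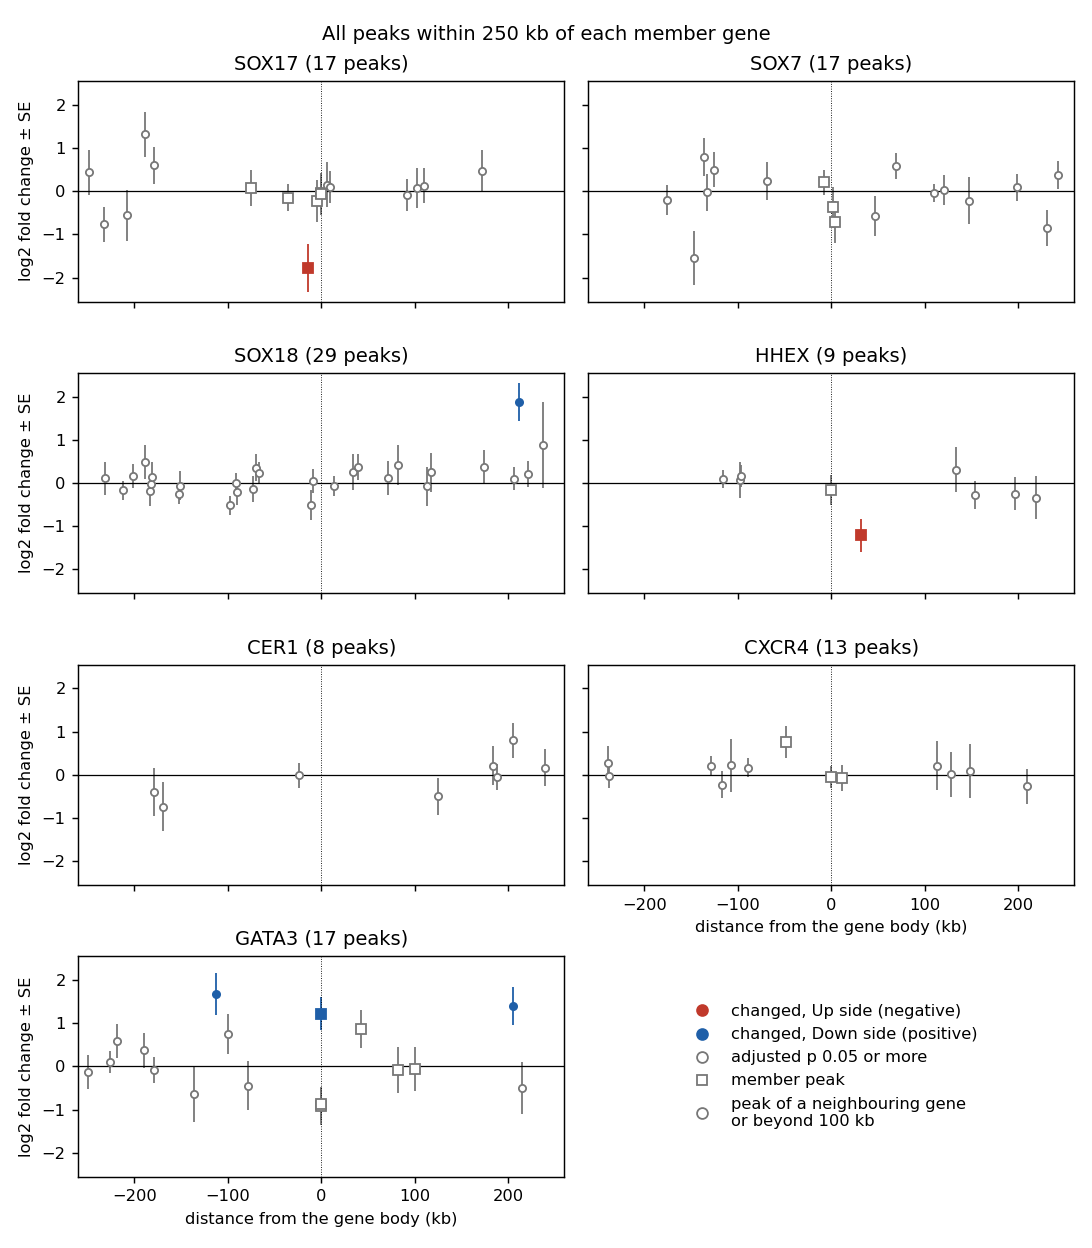
Log2 fold change ± SE in the authors' deposited table (y axis) of all peaks within 250 kb of each member gene against distance from the gene body in kb (x axis, peaks inside the gene at 0); squares are member peaks and circles other peaks. SOX17 and HHEX have 1 changed peak each, on the Up side, GATA3 has 3 on the Down side and SOX18 has 1 on the Down side, 211.6 kb from the gene, while SOX7, CER1 and CXCR4 have none.

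CXCR4, the receptor of the chemokine CXCL12 and a surface marker used to sort definitive endoderm, had 3 peaks and none passed. Its promoter peak (chr2:136117693-136118715) was the strongest of all the members, with a mean normalized count of 147.2, and gave -0.05 ± 0.25 log2 units in the authors' deposited table (SE, adjusted p = 0.971). The interval of that value runs from -0.54 to 0.44, and an absolute estimate of 0.74 would have been needed to pass. The peak 10.7 kb upstream of the gene gave -0.07 ± 0.30 log2 units in the authors' deposited table (SE, adjusted p = 0.964). A peak 48.5 kb beyond the 3′ end gave 0.76 ± 0.36 log2 units in the authors' deposited table (SE, adjusted p = 0.254). For the partners of the receptor, CXCL12 and the scavenger receptor ACKR3, 1 of 15 peaks changed (6.67%), near the 6.0% over all peaks. It lies inside ACKR3 and gave -1.83 ± 0.51 log2 units in the authors' deposited table (SE, adjusted p = 0.0115).

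CER1, which encodes a secreted antagonist of NODAL, BMP and WNT made by anterior endoderm, had no member peak. The only peak within 100 kb overlaps ZDHHC21, 23.6 kb away, and gave -0.02 ± 0.30 log2 units in the authors' deposited table (SE, adjusted p = 0.991). Of the 18 genes of the NODAL pathway and secreted antagonists, 17 had a peak within the same distance. Of these, 1 gene had a changed Up side peak and 2 had a changed Down side peak, in 3 of 68 peaks. That makes 1.47% (Up) and 2.94% (Down) of their peaks, near the 2.36% and 3.64% of all peaks for counts this small. The peak inside NODAL, the ligand gene, gave 1.198 ± 0.38 log2 units in the authors' deposited table (SE, adjusted p = 0.0311). That near the WNT antagonist gene SFRP1 gave 1.08 ± 0.34 log2 units in the authors' deposited table (SE, adjusted p = 0.0284), and that near the signal transducer gene SMAD2 gave -0.78 ± 0.26 (SE, adjusted p = 0.0427).

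In all, 3 of the 20 member peaks changed, 2 to the Up side and 1 to the Down side. Over all peaks 6.0% changed, 2.36% to the Up side and 3.64% to the Down side; of those within the members' range of mean counts 7.11% changed. The genes were chosen with earlier results of these data known, SOX17 and HHEX among them, so the members' share is no independent evidence. The authors' own marking takes in the same 3 member peaks, and 9.84% of all peaks. Each of the 3 passed narrowly, with adjusted p-values from 0.0267 to 0.0283. At an adjusted p under 0.01 none of the 20 passed, and 6 had an unadjusted p under 0.05, against 16.4% of all peaks. A change was found in 3 of the 5 member genes that had a peak, against 13.6% of the 8848 genes with 2 to 6 peaks. These shares are not strictly alike, since SOX17 and GATA3 have 6 peaks each, the most in that range. A gene with more peaks has more chances of a changed one. None of the 4 peaks that carry a member's symbol passed, and 2.11% of all symbol-bearing peaks did. Of the 3 changed peaks 2 lay outside protein-coding genes, where 7.69% of all peaks changed, against 4.83% of those overlapping such a gene. Of the member peaks 15 were below 0 and 5 above, with a median of -0.07 log2 units. Over all peaks 30355 were below 0 and 30520 above, with a median of 0.00146. Most of the 15 lay within 1 SE of 0, so their signs alone say little. Members were of ordinary width and depth. Their median width was 401 bp, against 395 bp over all peaks, and their median mean normalized count was 44.7, against 47.8 over all peaks, in the authors' deposited table. The chromosomes that carry the 7 genes had medians from 0.00194 to 0.022 log2 units.

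**Figure D3:**
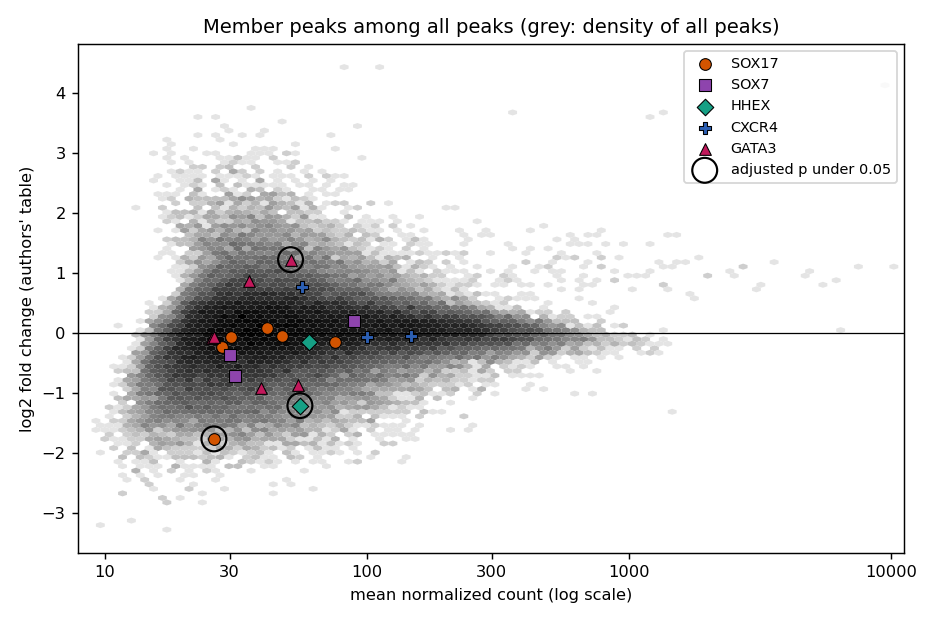
Log2 fold change (y axis) against mean normalized count (x axis, log scale) in the authors' deposited table for the 20 member peaks, drawn by gene over the density of all peaks in grey. Member counts run from 25.8 to 147.2, and the 3 circled peaks, of SOX17, HHEX and GATA3, are those with an adjusted p under 0.05.

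The side of each locus was set beside gene lists for endoderm and for endothelium, read by the same rule. These lists too were chosen with earlier results of these data known, so their shares are no independent evidence. Of 14 other endoderm transcription factor genes, 6 had a changed Up side peak and 2 a changed Down side peak. Of their 86 peaks 14 (16.3%) changed to the Up side and 2 (2.33%) to the Down side, against 2.36% and 3.64% of all peaks, with a median of -0.35 log2 units. FOXA2, which opens chromatin for other endoderm factors, had 7 of these 14 Up side peaks and no changed peak on the Down side. FOXA1, FOXA3, GSC, LHX1, OTX2, EOMES and MIXL1 had no changed peak. Among 10 genes of endoderm epithelium and secreted proteins, 5 had a changed peak on the Up side. Of their 38 peaks 13.2% changed to the Up side and 5.26% to the Down side, against 2.36% and 3.64% of all peaks, and a gene with more peaks has more chances of a changed one. APOB, 1 of these, also had 2 changed peaks on the Down side. A peak 5.32 kb from SERPINA1, which encodes a protease inhibitor of liver plasma, gave -1.87 ± 0.40 log2 units in the authors' deposited table (SE, adjusted p = 0.000263). A peak inside CDH1, the epithelial cadherin gene, gave -1.75 ± 0.45 log2 units in the authors' deposited table (SE, adjusted p = 0.00374).

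Endothelial loci had changed peaks on both sides, in shares near those over all peaks. Of 25 endothelial and haematoendothelial genes 23 had a peak, with a changed Up side peak in 4 of these and a changed Down side peak in 6. Of their 129 peaks 3.10% changed to the Up side and 4.65% to the Down side, against 2.36% and 3.64% of all peaks, with a median of 0.01 log2 units. The neuropilin gene NRP1 had a peak inside it that gave 1.96 ± 0.46 log2 units in the authors' deposited table (SE, adjusted p = 0.00110). In contrast, a peak 50.5 kb from the VEGF receptor gene FLT1 gave -1.82 ± 0.40 log2 units in the authors' deposited table (SE, adjusted p = 4.09e-04). A peak 25.9 kb from NOTCH1, a receptor of arterial fate, gave -0.94 ± 0.21 log2 units in the authors' deposited table (SE, adjusted p = 6.72e-04). TEK, NOS3, KDR, FLI1 and LMO2 also had a changed peak on the Down side, and CDH5 and RUNX1 on the Up side. SOX17 and HHEX thus each had a changed peak on the side that holds 14 of the 16 changed peaks of the endoderm factors. FOXA2 alone accounts for 7 of those 14. That side also holds 4 of the 10 changed endothelial peaks and 4 of the 5 changed peaks of the cardiomyocyte marker genes. A peak's side alone therefore does not tell an endoderm locus from an endothelial or a cardiomyocyte one. SOX7 and SOX18 have no changed peak and were given no side. GATA3 had its 1 changed peak on the Down side, while 4 of its 6 peaks were below 0 and the median of the 6 was -0.07. Of 8 trophoblast, amnion and surface ectoderm genes, the tissues GATA3 is also known from, 1 changed on each side. With 1 of their 29 peaks (3.45%) on either side, the shares lie near the 2.36% and 3.64% of all peaks. TP63, an epidermal factor, had a peak that gave 1.495 ± 0.46 log2 units in the authors' deposited table (SE, adjusted p = 0.0267). A peak near VTCN1, a surface protein gene, gave -0.99 ± 0.32 log2 units in the authors' deposited table (SE, adjusted p = 0.0409).

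**Figure D4:**
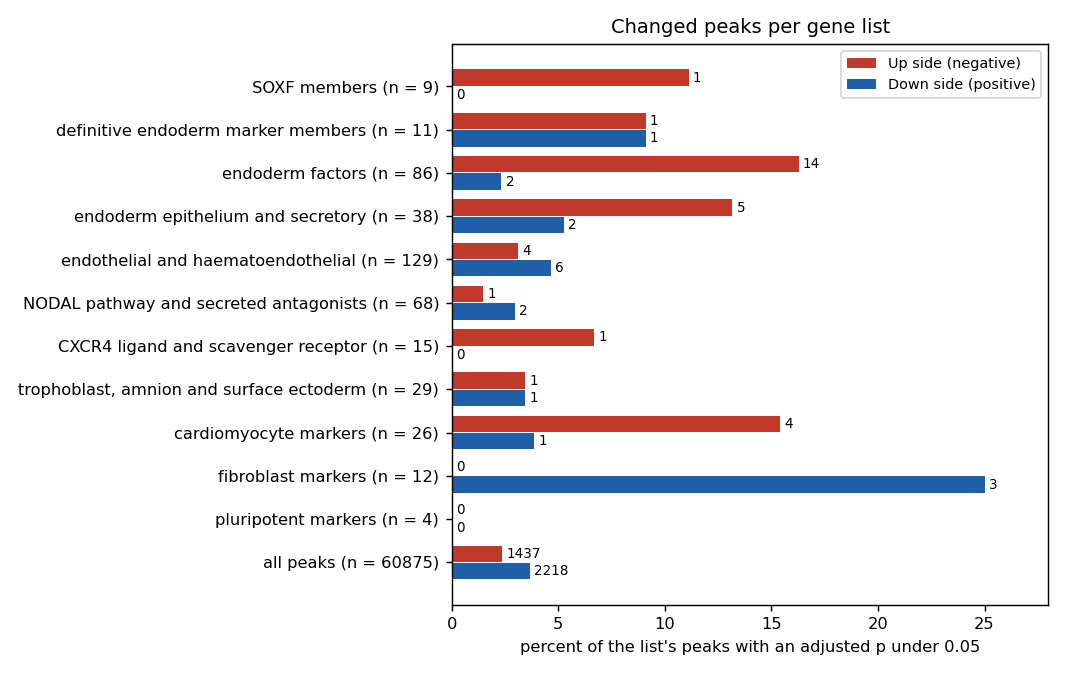
Percent of each list's peaks with an adjusted p under 0.05 (x axis) on the Up side (red) and the Down side (blue), with the number of changed peaks at each bar and the number of peaks after each list's name. The SOXF genes have 1 changed peak of 9, on the Up side. The group of definitive endoderm markers has 2 of 11, that of HHEX on the Up side and that of GATA3 on the Down side. Of the 86 peaks of the endoderm factors, 14 changed to the Up side and 2 to the Down side.

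Markers of other cell types moved in the same comparison. Of the 26 peaks of 7 cardiomyocyte marker genes 4 (15.4%) changed to the Up side and 1 (3.85%) to the Down side. Of the 12 peaks of 3 fibroblast marker genes 3 (25%) changed, each to the Down side. Over all peaks 2.36% changed to the Up side and 3.64% to the Down side. None of the 4 peaks of the pluripotency genes changed. Their part in the values of the SOXF and endoderm loci was not tested. By the median of their peaks, the listed genes with 3 or more peaks that were most like SOX17 (-0.11 over 6 peaks) were TNNT2 (-0.11) and MMRN2 (-0.11), with 3 peaks each, and neither had a changed peak. Under the same minimum of 3 peaks, those most like SOX7 (-0.37) were CXCL12 (-0.32) and GATA2 (-0.43). Those most like CXCR4 (-0.05) were EGFL7 (-0.05) and EFNB2 (-0.04), and those most like GATA3 (-0.07) were EOMES (-0.07) and GATA4 (-0.07). Likeness here is 1 median log2 fold change in 1 comparison, and listed genes with fewer peaks, which are not ranked, can lie closer.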

How the data were processed

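Chromatin accessibility was measured by ATAC-seq with paired-end reads of 42 bp on 50000 to 100000 cells per sample, per the labels' protocols; the molecule the labels name, total RNA, is at odds with that assay. There are 4 libraries, 2 of high and 2 of low purity, labelled biological replicates, and no label says that they came from separate cultures, so p-values cover the spread between the 4 libraries only. The tools BWA, MACS2 and DESeq2 appear, per the submitters' processing notes, beside GRCh38 and hg38, with no settings. Nothing used here says how reads were shifted for Tn5, whether duplicates were removed or whether peaks were called per library; each could change a peak's count.

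Per the file headers, the deposited table holds these values for each of 60875 peaks, all computed by the authors: a mean normalized count (the signal over all libraries), a log2 fold change with its SE, a Wald score, a p-value and an adjusted p-value. The authors' score was the log2 fold change over its SE to within 1.72e-07, and their adjusted p-value followed the Benjamini-Hochberg method to within 3.40e-06. Their Up and Down marks followed from an unadjusted p under 0.05 and an absolute log2 fold change of 1 or more, with 0 exceptions. No test per peak was added: the planned branch for counts per library was not used.

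Peaks were assigned with Python 3.11.15, pandas 2.3.3 and scipy 1.17.1 to RefSeq gene bodies (GRCh38.p14). Coordinates are copied from the authors' deposited table, which does not say whether starts count from 0 or 1. Strand was taken from the RefSeq promoter table, and for SOX17, SOX7 and SOX18 positions are given as below or above the gene. Exons and introns are not annotated here. Motifs were searched in promoters, since no genome sequence was used; the search in peaks was not run. The members and lists were chosen with earlier results of these data known. Peaks were named by a rule: every changed member peak, the smallest p of a member gene without one, every symbol-bearing member peak, and up to 3 changed genes per list by smallest p, of which FOXA2 and APOB are given by their counts alone and some others are not reported here. The remaining member peaks, the surrounding peaks and the pairs of peaks whose difference is given were added after their values were seen. The endothelial genes named by their side alone and the endoderm factors named as having no changed peak were added likewise. Code for the adjustment and assignment was tested on simulated data.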

Additional observations from a re-analysis of the deposited data

How the results depend on the processing

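At an adjusted p under 0.01 the count of changed member peaks was 0, as were those of the SOXF genes, of the definitive endoderm markers and of member genes with a changed peak; at an adjusted p under 0.1 or by the authors' marking they were 3, 1, 2 and 3 as before. By gene symbol alone all 4 counts were 0, over 4 peaks. With nearest genes within 10 kb they were 1, 0, 1 and 1, since only the peak inside GATA3 lies that close. When peaks under the median of the mean counts were dropped and p adjusted anew, there remained 0 changed SOXF peaks, since the SOX17 peak falls below that count, and 2 changed member peaks in all. Recentring, nearest genes within 50 kb and every peak within 100 kb changed no count. Recentred on the running median of peaks ordered by mean count, the adjusted p was 0.0367 for SOX17, 0.0196 for HHEX and 0.0429 for GATA3. The median over the members ran from -0.15 to -0.05 over the alternatives that can move it. No paired analysis was possible because the table holds only the finished comparison; TMM and DESeq2 scaling, count filters and leaving out each library were not run for the same reason. Low counts limit the members: the absolute estimated log2 fold change needed to pass ran from 0.74 to 1.64.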
